A study of Mus musculus with 4 samples.

Results

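Cells of mice given 2-deoxy-D-glucose (2DG) together with aPDL1 were compared with cells of mice given 2DG alone, to see which immune cell types and which of their transcripts differed when aPDL1 was added to 2DG. Each side was 1 single-cell library, 2DG and 2DG_aPDL1, and the latter is called the combination. The name aPDL1 reads as an antibody against PD-L1, though the labels do not spell it out. All barcodes of both libraries with 500 or more detected genes and at most 10% mitochondrial UMIs (unique molecular identifiers, the counted RNA molecules) were taken, less predicted doublets. That gave 7390 cells in 2DG and 8554 in the combination, 15944 of the 32671 cells of the series or 48.8%. A library labelled ctrl and a library labelled aPDL1 were clustered with them, and their values stand beside those of the 2 libraries compared only to show the level.

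Per the labels the source of all 4 libraries was mouse lymph node, and the series is about ovarian tumours, glycans as a target and checkpoint blockade. Neither dose, schedule, sex, number of animals nor tumour burden is given in the labels, and the design text speaks of young and aged mice without saying which library is which. With 1 library on each side there was no replicate, so no test was made and a difference between treatments and a difference between mice, digests or captures cannot be told apart. Shares of cells are given with exact Clopper-Pearson 95% intervals, levels in CPM (UMIs of a gene scaled to the total of its cell type) with exact Poisson 95% intervals, and log2 ratios of the combination to 2DG with exact 95% intervals. All of these intervals cover counting error only.

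2DG is a glucose analogue that hexokinase phosphorylates but glycolysis cannot use further, and, as a mannose mimic, it can also be built into the sugar precursors of N-glycans. PD-L1, the product of Cd274, is carried by myeloid, dendritic and many tumour cells and restrains activated T cells through their receptor PD-1 (Pdcd1). CTLA-4 (Ctla4) is a separate brake, held at a high level by regulatory T cells. In a lymph node, T cells, B cells and dendritic cells are gathered by chemokines of the stroma, among them those encoded by Ccl19 and Ccl21a.

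The 2 libraries were close in depth. They held 8701 and 9948 barcodes and 61859753 and 65369018 UMIs in all, with medians of 6427 and 6032 UMIs and 2390 and 2266.5 genes per analysed cell, in the order 2DG and combination. Mitochondrial UMIs had medians of 1.89% and 1.96%, and 20 barcodes occurred in both libraries, 0.252% of the smaller one. The labelled tissue was not borne out by its stromal markers: Ccl19 was at 0 and 0.018 CPM over all cells, Ccl21a at 0.019 and 0, and Madcam1 at 0.019 and 0.018. Plasma cell Jchain was at 0.815 and 0.999 CPM. Markers of epithelial or tumour cells and of fibroblasts were low. Of the former Krt18 was at 15.5 and 5.30 CPM and Krt19 at 0.167 and 0.16, and of the latter Col3a1 was at 11.5 and 4.44 CPM, Col1a1 at 2.57 and 2.19 and Col1a2 at 2.85 and 2.98. Prg4, a gene of resident peritoneal macrophages, was at 6.15 and 23.5 CPM. As a measure of stray RNA, C1qa was at 2520.5 and 2379 CPM in C1q macrophages and at 15.7 and 9.85 in regulatory T cells, 11.2 and 8.62 in NK cells and 7.47 and 9.55 in B cells. The part of other cells and of stray RNA in the differences below was not tested.

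Cells were assigned to types by marker genes, so every type named here stands for cells that resemble it in those genes. B cells were a larger and regulatory T cells a smaller share of the combination than of 2DG. B cells, which make antibody, were 133 cells or 1.80% of 2DG (1.51 to 2.13) and 465 cells or 5.44% of the combination (4.96 to 5.94), a 3.02-fold higher share (2.49 to 3.69). In ctrl and aPDL1 they were 0.930% and 2.95%, so as a share of all cells the combination was the highest of the 4. Neutrophils were 37.5% of ctrl and 3.5% of the combination, and T and NK cells 6.53% and 39.5%. The ranking against ctrl therefore depends on which cells make up the whole. Regulatory T cells, which restrain other T cells, were 8.36% in 2DG (7.74 to 9.02) and 3.83% in the combination (3.44 to 4.26), with 618 and 328 cells. Their share of all cells was 2.18-fold lower when aPDL1 was added, below the 4.92% of aPDL1 and above the 1.87% of ctrl. As a share of T and NK cells they were instead highest in ctrl, as given below.

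T and NK cells as a whole were fewer in the combination, at 46.0% and 39.5% of cells, and their make-up differed. Conventional CD4 T cells were 3.17% and 4.06% of all cells (234 and 347 cells), a ratio of 1.28 (1.08 to 1.52). That log2 ratio of 0.36 turned to -0.62 when cells needed 1000 genes. Natural killer (NK) cells were 4.24% and 5.13%, a ratio of 1.21 (1.05 to 1.41), and CD8 T cells 16.9% and 21.1%, a ratio of 1.25 (1.16 to 1.34). Regulatory T cells made up 28.6% of T and NK cells in ctrl, 18.2% in 2DG, 12.2% in aPDL1 and 9.71% in the combination. There were 2.02 CD8 T cells per regulatory T cell in 2DG and 5.51 in the combination, and 0.379 and 1.06 conventional CD4 T cells. The CD4 and CD8 shares and these ratios leave out a cluster of Cd4 and Cd8 cells together, described next. That cluster held 642 cells of 2DG and 135 of the combination. The shares and ratios therefore do not give the direction for all CD4 or all CD8 T cells. Proliferating T cells were 2.56% and 1.79%, a ratio of 0.699 (0.561 to 0.870). Naive-like T cells, at 1.68% and 1.67%, and gamma-delta T cells, with 28 and 25 cells, had ratios whose intervals included 1.

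The largest relative difference was in a T cell cluster led by Tox, a factor of chronically stimulated T cells, with Ccl5, Nkg7 and Lag3, which held Cd4 and Cd8 cells together and is called T of both kinds. It held 642 cells of 2DG and 135 of the combination, 8.69% and 1.58%, a 5.50-fold lower share. On the log2 scale that ratio was -2.46, and between -2.04 and -1.10 with other doublet and clustering settings. Of its cells, 39.1% in 2DG and 27.4% in the combination had Cd4 UMIs without Cd8a or Cd8b1, and 46.1% and 55.6% had Cd8 UMIs without Cd4. CD8 T cells also lay in different clusters, most often in a cluster led by Gramd3, Cd28 and Skap1 in 2DG (43.6% of them) and in one led by Ccl5, Nkg7, Ifng and Prf1 in the combination (54.8%). The Gramd3 cluster was not free of Cd4 cells: 16.5% of its cells in 2DG and 12.2% in the combination had Cd4 UMIs without Cd8a or Cd8b1. In the conventional CD4 T cluster, 13.7% and 9.80% had Cd8 UMIs without Cd4. The shares and ratios above include such cells. Values within CD8 T cells below also include them and are over different mixtures of clusters.

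Dendritic cells, which carry antigen to T cells, were 7.16% of 2DG and 5.52% of the combination, and 2 of their 4 types were scarcer in the combination. Type 1 conventional dendritic cells, which present antigen to CD8 T cells, were 96 and 32 cells, 1.30% (1.05 to 1.58) and 0.374% (0.256 to 0.528), a 3.47-fold lower share. Migratory dendritic cells were 122 and 72 cells, 1.65% and 0.842%, a ratio of 0.510 (0.376 to 0.688). Type 2 conventional dendritic cells stood at 3.63% and 3.71% and plasmacytoid dendritic cells at 43 and 51 cells, and both ratios had intervals that included 1. As a share of all dendritic cells, type 1 went from 18.1% to 6.78% and type 2 from 50.7% to 67.2%. Fscn1 and Ccl22, which helped to define the migratory type, and Xcr1, which helped to define type 1, were themselves lower per cell in the combination, as given below.

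Myeloid shares were higher in part. Classical monocytes, which enter tissue from blood, were 8.29% of 2DG and 14.6% of the combination, a ratio of 1.76 (1.60 to 1.95). Its log2 value, 0.82, was 0.26 at a coarser clustering. Macrophages with complement C1q were 14% and 15.8%, a ratio of 1.13 (1.04 to 1.23), and neutrophils 4.51% and 3.5%, a ratio of 0.776. The log2 ratio of the C1q macrophage share, 0.18, turned to -0.034 when doublets were left in and to -0.019 when cells needed 1000 genes. These macrophages pooled clusters that went opposite ways. One led by Ccl8, C1qb and Mrc1 held 714 cells of 2DG and 1190 of the combination. One led by C1qa, Apoe and C1qc held 165 and 93, and one led by Ccl8, Apoe and C1qa held 152 and 66. Values within C1q macrophages below are therefore also over different mixtures of clusters.

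**Figure D1:**
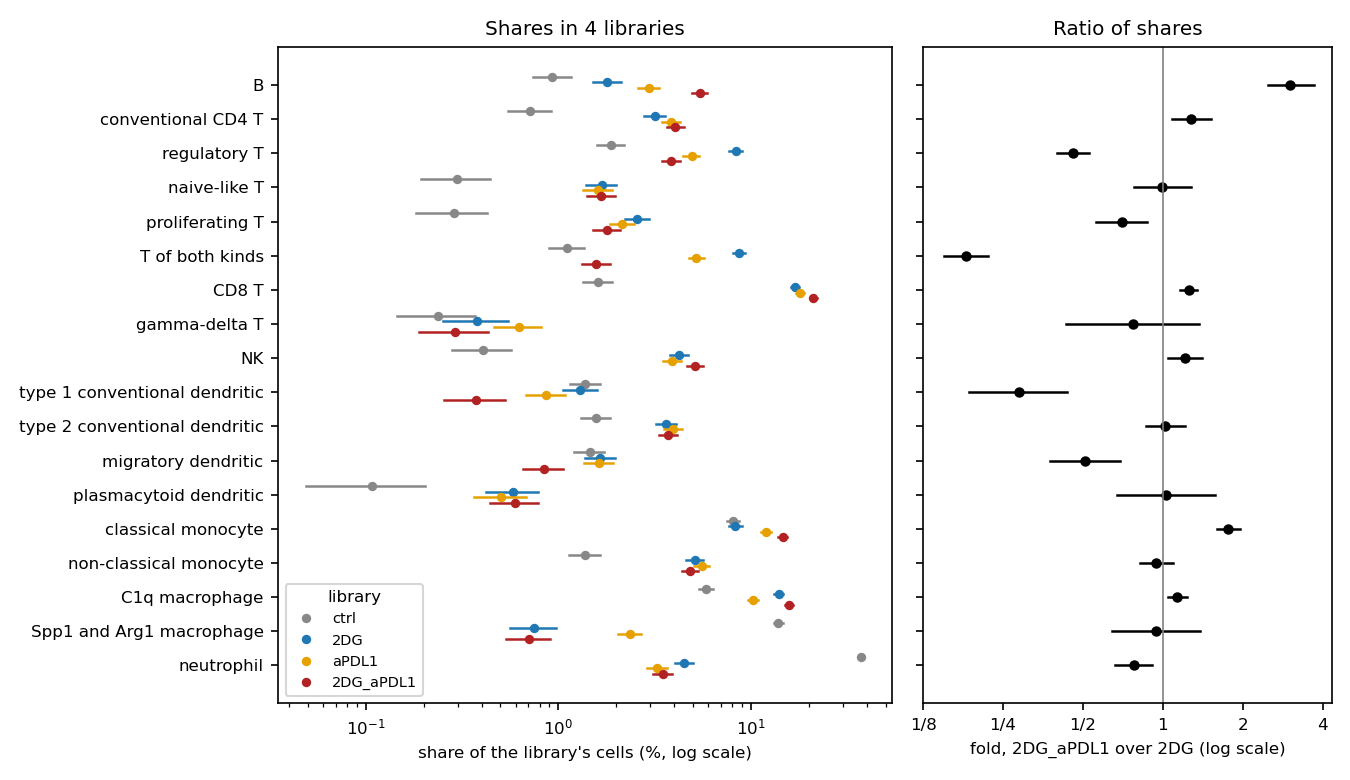
Share of cells of each type in the 4 libraries (left, percent on a log scale, 1 point per library with exact 95% interval) and the ratio of the combination to 2DG (right, fold on a log scale with exact 95% interval). B cells stand 3.02-fold above 1, while T of both kinds, type 1 conventional dendritic cells and regulatory T cells stand farthest below it.

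Some genes differed in the same direction in nearly every cell type. 13 cell types held 100 or more cells in both libraries, and 1925 genes had 50 or more UMIs in the higher library in each of them. Over all cells, 2105 of 14082 such genes were 1.5-fold or more apart (14.9%), the size called a difference from here on. Since the minimum is set on the library where a gene is higher, counts of genes past it are descriptions. The median log2 ratio over all these genes was -0.10 over all cells and between -0.08 (classical monocytes) and 0.03 (neutrophils) in these 13 types. Zfp36, H2-T23 and the predicted gene Gm10076 were among those past the fold and higher in all 13 types, and 6 genes were past it and lower in all 13 (Hspa1b, Lars2, Gm42418, Cdk8, Camk1d and Gphn). With 10 types required, the counts were 16 higher and 13 lower. The scaling to total UMIs bears on such splits: with TMM factors in its place, the median of all genes moved by 0.12 in B cells, 0.10 in C1q macrophages and 0.11 in classical monocytes. The genes past the fold that were higher then went from 54.1% to 75.8%, from 37.0% to 54.9% and from 42.8% to 66.6% in these 3 types.

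Zfp36 encodes tristetraprolin, an immediate early protein that speeds the decay of cytokine mRNAs. Over all cells it was at 1102 CPM in ctrl, 350.3 in 2DG, 269 in aPDL1 and 754 in the combination, and the log2 ratio of the combination to 2DG had a median of 1.28 over the 13 types (0.60 to 1.80). Junb, a subunit of the AP-1 transcription factor, was at 1328, 932, 946 and 1618 CPM in the same order and past the fold in 10 types. Nr4a1, a nuclear receptor induced by antigen receptor signalling, was at 113, 86.0, 75.2 and 158 CPM and also past it in 10. For Zfp36 and Junb, then, 2DG was well below ctrl over all cells, and the combination was nearer to or above ctrl. The cell mix differed, however: neutrophils were 37.5% of ctrl, 4.51% of 2DG and 3.5% of the combination. In 2DG, Zfp36 was at 1092 CPM in neutrophils and 51.6 in CD8 T cells. The part of the cell mix in the levels against ctrl was not tested. Ccl4, a chemokine of activated T, NK and myeloid cells, was at 625 and 1338 CPM in 2DG and the combination and past the fold in 12 types. H2-T23, which encodes the non-classical class I molecule Qa-1, was at 78.8 and 176 CPM.

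As a list, 22 immediate early genes, which are transcribed within minutes of a stimulus and also of tissue handling, had a median log2 ratio above 0 in 13 of 13 types, under every scaling run. It was lowest in non-classical monocytes (0.38) and highest in proliferating T cells (0.99), with a middle value of 0.64. The time from dissection to capture is not given in the labels, and its part in these levels was not tested. Zfp36, Nr4a1 and Junb are the genes of this list that were past the fold in 10 or more types, and the 200 bases before their transcription starts are shown for that reason, from RefSeq on GRCm38.p6. A CArG box, the site named for serum response factor, and the cAMP response element TGACGTCA were searched on both strands, and no match of one overlapped a match of the other in the windows printed. The CArG box occurred in 1.18% of the 32851 RefSeq promoters of that length and the cAMP response element in 1.47%. Of the 19 list genes with an entry, 2 had a CArG box (Egr2 and Zfp36) and 2 a cAMP response element (Btg2 and Dusp1). In the sequences below, 5′ to 3′ on the strand of the gene, capitals mark the CArG box of Zfp36 at chr7:28379229-28379428, which starts 58 bases before the transcription start. Nr4a1 at chr15:101266646-101266845 and Junb at chr8:84978749-84978948 held neither string.
Zfp36: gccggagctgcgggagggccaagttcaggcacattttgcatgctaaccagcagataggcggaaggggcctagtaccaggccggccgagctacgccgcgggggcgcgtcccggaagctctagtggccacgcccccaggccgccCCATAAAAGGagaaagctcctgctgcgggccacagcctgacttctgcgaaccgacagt
Nr4a1: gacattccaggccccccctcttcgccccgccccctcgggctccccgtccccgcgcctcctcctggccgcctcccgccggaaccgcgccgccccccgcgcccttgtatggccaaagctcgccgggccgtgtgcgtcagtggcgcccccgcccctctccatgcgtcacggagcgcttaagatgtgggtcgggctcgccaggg
Junb: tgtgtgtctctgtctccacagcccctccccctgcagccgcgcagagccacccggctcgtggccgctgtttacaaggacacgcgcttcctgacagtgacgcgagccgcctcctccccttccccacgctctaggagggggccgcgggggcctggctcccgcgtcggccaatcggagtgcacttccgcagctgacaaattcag

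The genes lower across cell types were of another kind. Hspa1a and Hspa1b, near-identical genes for inducible heat shock protein 70 between which reads may be split uncertainly, were at 189 and 200.4 CPM in 2DG and 54.4 and 33.3 in the combination. Gm42418, a gene model that overlaps ribosomal RNA sequence, was the most abundant of them, at 39846 CPM in ctrl, 58398 in 2DG, 45032 in aPDL1 and 25019 in the combination. Lars2, for a mitochondrial leucyl-tRNA synthetase, was at 1121 and 528 CPM, Cdk8, a kinase of the Mediator complex, at 866 and 388, and Camk1d, a calcium-dependent kinase, at 2839 and 1463. Genes that differ in this way in all types at once move with the library, and the part of library preparation in them was not tested. They recur among the genes of each type named by size, and the sections below pass over them.

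B cells differed in 900 of 5693 genes (15.8%) and showed a higher level of ribosomal protein transcripts together with some activation genes. All 71 genes for cytosolic ribosomal proteins were higher in the combination and 45 of them past the fold, against 8.55% of all genes of these cells that were past it and higher. Their median log2 ratio was 0.65 and that of all genes -0.05. Summed, they were at 101555 CPM in 2DG and 159361 in the combination. Rpl32 was among them, at 1490.0 and 2921 CPM. The same list had a median above 0 in 12 of the 13 types, with B cells the highest and C1q macrophages the lowest (-0.14).

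Il5ra, a receptor chain for interleukin 5 carried by innate-like B cells, was at 66.6 CPM in ctrl, 79.2 in 2DG, 75.0 in aPDL1 and 254 in the combination, a log2 ratio of 1.67 (1.28 to 2.11). Vim, for the intermediate filament vimentin, was at 202 and 579 CPM in 2DG and the combination (2.86-fold), and S100a6, a calcium-binding protein, at 465 and 972 CPM. The combination was the highest of the 4 libraries for Il5ra, Vim and S100a6. Of 21 genes of B cell activation and the germinal centre, 16 were tested, 11 were higher and 5 were past the fold, with a median of 0.24, where 8.55% of all genes were past it and higher. Among these were the early activation marker Cd69 at 405 and 644 CPM, the costimulatory ligand Cd86 at 705 and 1073 CPM, a log2 ratio of 0.60, and Myc, which drives cell growth, at 62.8 and 128 CPM. The median of this activation list was above 0 in 13 of 13 types, with a middle value of 0.28. It was highest in NK cells (0.97), so the list was not particular to B cells. 8 of 20 tested immediate early genes were past the fold and higher, beside the same 8.55% of all genes, and 1 was past it and lower.

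The genes that define B cells were at nearly the same level on both sides, although the share of B cells was 3.02-fold higher in the combination. Ms4a1, for CD20, was at 673 and 708 CPM, Ighm, the heavy chain of IgM, at 2412 and 2367 CPM and Ighd, that of IgD, at 293 and 292 CPM. Of 23 tested genes of B cell identity and subsets, none was past the fold and higher and 3 were past it and lower (7.25% of all genes), among them the complement receptor Cr2 at 140.5 and 90.7 CPM, a log2 ratio of -0.64 (-0.98 to -0.27). Txnip, which follows glucose supply, was at 299 and 167 CPM, a log2 ratio of -0.84. Heat shock genes other than the pair above were also lower: Hsph1 was at 203 and 58.9 CPM, and 15 of 17 tested genes of the list were below 0. The median UMIs per B cell were 4640 in both libraries.

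Regulatory T cells were fewer in the combination, and those present carried more Ctla4 and activation receptors, more Areg and fewer cell cycle and cholesterol synthesis transcripts. In all, 891 of 7118 genes were past the fold (12.5%). Foxp3, the factor that defines the lineage, was at 318 CPM in ctrl, 358 in 2DG, 403 in aPDL1 and 397 in the combination, a log2 ratio of 0.15 (0.01 to 0.29), and Ikzf2, for Helios, at 5096 and 5163 CPM in the pair. Ctla4 was at 1636 CPM in ctrl, 1749 in 2DG, 1651 in aPDL1 and 2925 in the combination, a log2 ratio of 0.74 (0.69 to 0.80). Ctla4 itself helped to define the class, and the other 3 libraries were close to each other. Tnfrsf9, for the costimulatory receptor 4-1BB, was at 826 and 1646 CPM, and Il2ra, the high-affinity receptor chain for interleukin 2, at 1070.4 and 1654 CPM, a log2 ratio of 0.63. Of 19 tested genes of the regulatory programme, 13 were higher and 7 past the fold, against 4.57% of all genes, with a median of 0.19. The median of this list was above 0 in 10 of 13 types, with a middle value of 0.20. It was highest in CD8 T cells (0.52), so a higher list was not particular to regulatory T cells.

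Il1rl1, Ccr8 and Areg, known from regulatory T cells of tissues, were past the fold. Areg, for the repair factor amphiregulin, was at 209.6 CPM in ctrl, 228 in 2DG, 305 in aPDL1 and 783 in the combination, a log2 ratio of 1.78 (1.65 to 1.91). Areg was past the fold and higher in all 5 of the types in which it was tested, with a median of 2.18, so it was not particular to regulatory T cells. Il1rl1, the receptor for interleukin 33, was at 97.1 and 198 CPM, the chemokine receptor Ccr8 at 75.4 and 121 CPM, and Il15ra at 52.5 and 165 CPM in 2DG and the combination. Il10 was at 41.7 and 46.0 CPM with an interval of the log2 ratio that included 0 (-0.29 to 0.56). Thsd7b was nearly unique to the libraries with aPDL1, at 1.15 CPM in ctrl, 0.290 in 2DG, 54.5 in aPDL1 and 49.9 in the combination, from 1 UMI in 2DG and 76 in the combination. The cytotoxic genes Gzmb and Prf1, for granzyme B and perforin, were at 95.1 and 163 and at 30.4 and 64.3 CPM.

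Cholesterol and cell cycle genes were lower in regulatory T cells. All 13 tested genes of cholesterol synthesis were lower and 8 were past the fold, against 7.95% of all genes, with a median of -0.65 beside -0.04 for all genes. Hmgcs1, an early enzyme of the pathway, was at 42.0 and 17.7 CPM, a log2 ratio of -1.22 (-1.90 to -0.65). Of 28 tested cell cycle genes 26 were lower and 12 past the fold, with a median of -0.50. Mki67, the marker Ki-67, was at 203 and 139 CPM, a log2 ratio of -0.55 (-0.78 to -0.33). Sema6d, for a semaphorin, was also lower, at 78.3 and 21 CPM, and past the fold in 5 of the 6 types in which it was tested. Median UMIs per regulatory T cell were 4987 and 4355.5.

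Conventional CD4 T cells in the combination held more transcripts of inhibitory receptors and of Ccl3 and Ccl4, and far fewer of Ccl1. 833 of 5647 genes were past the fold (14.8%). Ccl3, a chemokine that draws monocytes and T cells, was at 97.7 CPM in ctrl, 160.2 in 2DG, 364 in aPDL1 and 1040.4 in the combination, a log2 ratio of 2.70 (2.51 to 2.89). Ccl4 was at 416 and 1559 CPM in the pair, a log2 ratio of 1.90. When cells needed 1000 genes, the log2 ratios of Ccl3 and Ccl4 were 1.11 and 1.0. Ccl3 was past the fold and higher in 10 of the 11 types in which it was tested. Ccl1, which attracts cells with CCR8, ran the other way, at 795 CPM in ctrl, 759.7 in 2DG, 379.8 in aPDL1 and 61.4 in the combination, 12.3-fold lower in the combination than in 2DG, a log2 ratio of -3.62 that was -2.64 when cells needed 1000 genes. The aPDL1 library lay between 2DG and the combination for both Ccl3 and Ccl1.

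All 13 tested genes for inhibitory receptors and related markers were higher in conventional CD4 T cells and 4 were past the fold, against 7.17% of all genes. The median of the list was 0.46 beside 0.00 for all genes, and 0.15 when cells needed 1000 genes. Ctla4 was at 573 CPM in ctrl, 488 in 2DG, 661 in aPDL1 and 1214 in the combination, a log2 ratio of 1.31 (1.2 to 1.43). Havcr2, for TIM-3, was at 125 and 253 CPM, Pdcd1 at 261 and 386 CPM and Lag3 at 203 and 298 CPM, with log2 ratios of 1.02, 0.57 and 0.55. The costimulatory receptor gene Icos was at 308 and 629 CPM and Klrd1, for the NK receptor chain CD94, at 129.7 and 404 CPM. Ifng, for interferon gamma, was at 427 and 502 CPM, a smaller difference (log2 ratio 0.23). Il10 was at 6 UMIs in 2DG and 52 in the combination, and its log2 ratio of 2.79 became 0.25 when doublets were left in.

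Lower in conventional CD4 T cells, besides Ccl1, were the granzyme gene Gzmc at 386 and 177 CPM, the chemokine Xcl1 at 175 and 61.4 CPM and the tetraspanin Cd81 at 181 and 25.6 CPM. The log2 ratio of Cd81, -2.81, was -2.00 when cells needed 1000 genes. Zfp804b, a zinc finger gene, was at 117 CPM in ctrl, 109 in 2DG, 9.09 in aPDL1 and 3.07 in the combination, so both libraries with aPDL1 were low. The same held for Sugct, at 269 CPM in ctrl, 167 in 2DG, 42.4 in aPDL1 and 18.9 in the combination, and for Dscaml1, at 97.7, 97.4, 24.7 and 10.7 CPM in that order. 13 of 21 tested immediate early genes were past the fold and higher, beside 7.17% of all genes, with Fos at 147 and 368 CPM. Median UMIs per cell were 6557 and 5304.

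NK cells, innate killers of stressed cells, kept their killing genes at similar levels while early activation genes and chemokines were higher. 638 of 5436 genes were past the fold (11.7%). Perforin (Prf1) was at 1868 and 1857 CPM, granzyme A (Gzma) at 11092 and 12259 CPM and granzyme B (Gzmb) at 2542 and 3512 CPM, the last a log2 ratio of 0.47. Nr4a1 was at 113 CPM in ctrl, 60.6 in 2DG, 73.3 in aPDL1 and 234 in the combination, a log2 ratio of 1.94 (1.64 to 2.26). Of 18 tested immediate early genes, 17 were higher and 12 past the fold, against 6.09% of all genes, and of 16 tested NF-kB targets all were higher and 10 past it. The medians were 0.94 and 0.75 beside -0.02 for all genes. The NF-kB list was not particular to NK cells. Its median was above 0 in 12 of the 13 types, with a middle value of 0.55, and below 0 in B cells (-0.12).

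Nfkbia, the inhibitor that NF-kB itself induces, was at 496 and 1218 CPM in NK cells, Ccl4 at 1688 and 3931 CPM and Ccl3 at 339 and 795 CPM. Of 31 NK receptor and effector genes, all tested, 23 were higher and 4 past the fold and higher, beside 6.09% of all genes, with a median of 0.14. The Ly49 receptor genes Klra8 and Klra4, which belong to a family of close copies between which reads may be split uncertainly, were at 291 and 480.2 and at 334 and 533 CPM. Ifng was at 213 and 283 CPM, a log2 ratio of 0.41 (0.22 to 0.60). Gzmc, a granzyme of strongly stimulated killer cells, was the exception, at 430.4 CPM in ctrl, 223 in 2DG, 3.42 in aPDL1 and 17.7 in the combination, 12.5-fold lower than in 2DG, a log2 ratio of -3.64 that became -0.48 when 2 times as many doublets were removed. Median UMIs per NK cell were 5468 and 4513.

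**Figure D2:**
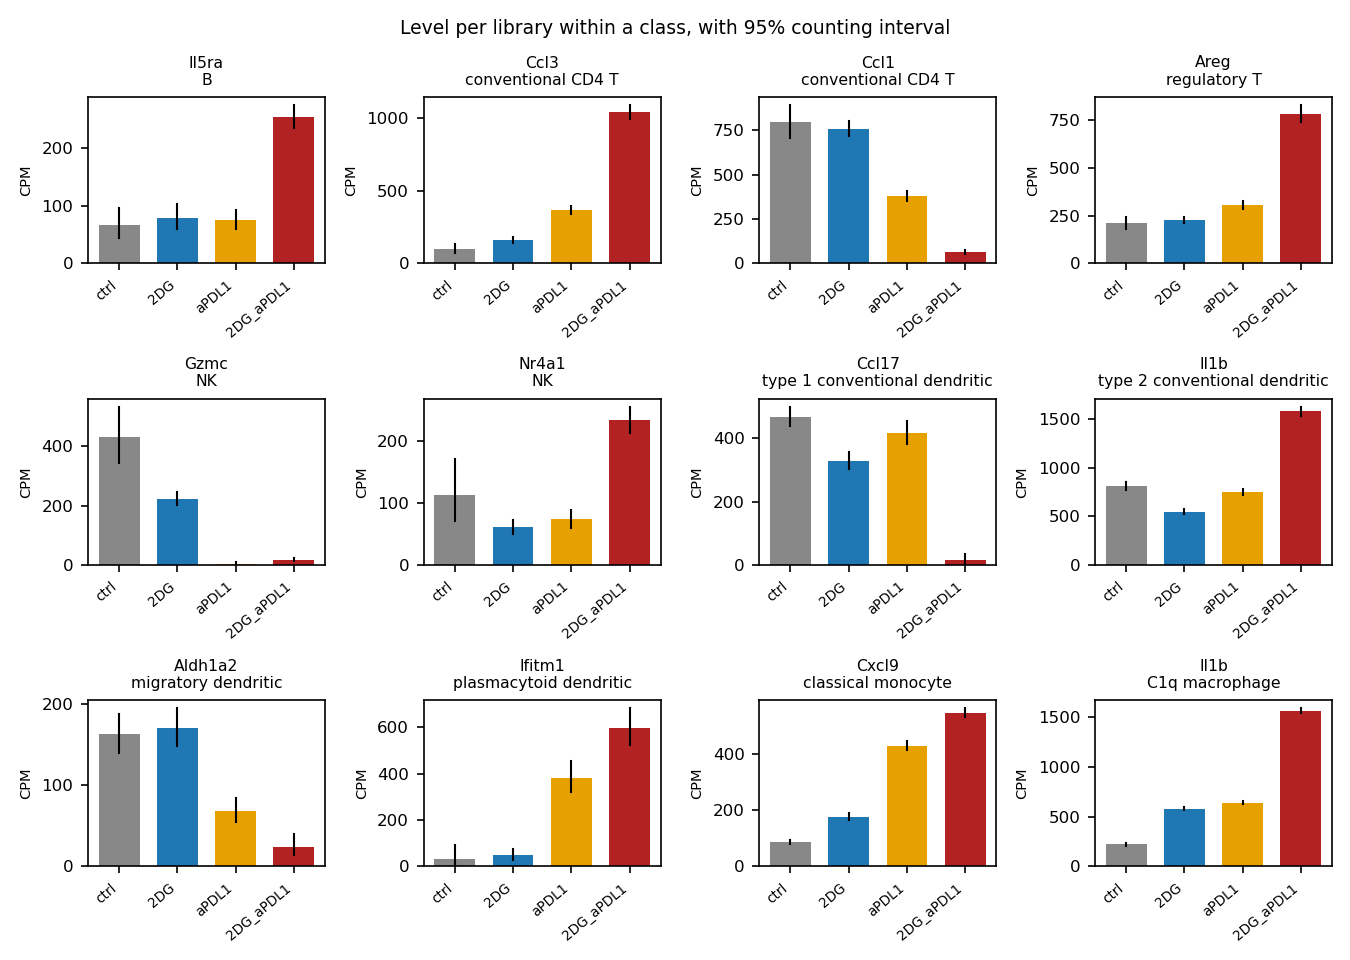
Level of 12 gene and cell type pairs in each of the 4 libraries (bars, CPM of that cell type, from 0; error bars, exact 95% Poisson interval). Il5ra in B cells and Areg in regulatory T cells stand apart in 2DG_aPDL1 alone, while Ccl1 in conventional CD4 T cells and Gzmc in NK cells are lowest in the libraries with aPDL1.

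The dendritic types differed from each other in what was higher and lower. Type 2 conventional dendritic cells, which present antigen to CD4 T cells, differed in 1047 of 6580 genes (15.9%). Il1b, for the inflammatory cytokine interleukin 1 beta, was at 815 CPM in ctrl, 549 in 2DG, 748 in aPDL1 and 1580.0 in the combination, a log2 ratio of 1.53 (1.44 to 1.61). Ccr7, the receptor that guides dendritic cells to lymph nodes, was at 71.4 CPM in ctrl, 32 in 2DG, 50.1 in aPDL1 and 112 in the combination, and the maturation marker Cd83 at 406 and 728 CPM in the pair. Cxcl10, which draws activated T cells, was at 191 and 376 CPM. Of 21 tested NF-kB targets 20 were higher and 11 past the fold, against 6.52% of all genes. Their median was 0.61 beside -0.03 for all genes.

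Other maturation and antigen presentation genes of type 2 conventional dendritic cells were flat or lower. Ccl17, which attracts T cells with CCR4, was at 1144 CPM in ctrl, 559.7 in 2DG, 669 in aPDL1 and 213 in the combination, a log2 ratio of -1.40 (-1.53 to -1.26). Ciita, the master regulator of class II genes, was at 676 and 421 CPM and H2-Aa, one of those genes, at 5179.6 and 5188 CPM. 8 of 13 tested cholesterol synthesis genes were past the fold and lower, against 9.39% of all genes, with a median of -0.66 that was -0.15 at a finer clustering and -0.12 when the 2 libraries were clustered alone. Nav2 was at 162 and 28.6 CPM, 5.63-fold lower, and Qpct at 53.3 and 12 CPM, a log2 ratio of -2.14 that was -0.81 when the 2 libraries were clustered alone. Median UMIs per cell were 10115 and 8109.

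Migratory dendritic cells held lower levels of their T cell attracting chemokines and higher levels of class II genes. 672 of 3701 genes were past the fold (18.2%). Ccl22 was at 1643 CPM in ctrl, 1749 in 2DG, 1442 in aPDL1 and 860.0 in the combination, a log2 ratio of -1.02 (-1.16 to -0.89), Ccl17 was at 920.2 and 483 CPM in the pair, and Fscn1, for the actin bundler fascin, at 1741 and 909.6 CPM. Ccr7 was at 2143 and 2347 CPM. All 9 tested class II genes were higher and 5 past the fold, against 7.86% of all genes, with H2-Ab1 at 1670.4 and 2943 CPM and Ciita at 144 and 294 CPM. Aldh1a2, the enzyme that makes retinoic acid, was at 163 CPM in ctrl, 170.1 in 2DG, 68.3 in aPDL1 and 24 in the combination, a log2 ratio of -2.78 (-3.69 to -2.07). Gpr183, an oxysterol receptor that positions cells, was at 308 and 876 CPM, and Spock1, a proteoglycan gene, at 224 and 22.4 CPM.

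Type 1 conventional dendritic cells, of which the combination held 32, differed in 1032 of 5075 genes (20.3%). Ccl17 was at 469 CPM in ctrl, 329 in 2DG, 417 in aPDL1 and 16.7 in the combination, from 590 and 8 UMIs in the pair. Its log2 ratio of -4.21 was -0.64 when the 2 libraries were clustered alone. The interferon-induced membrane protein genes Ifitm1 and Ifitm6 were at 148 and 1002 and at 7.80 and 107 CPM, both higher in the combination. Their log2 ratios of 2.76 and 3.74 were 0.93 and 1.56 when the 2 libraries were clustered alone. Xcr1, the chemokine receptor that marks the type, was at 518 and 326 CPM, a log2 ratio of -0.66 (-0.92 to -0.42). Nlgn1 had 116 UMIs in 2DG and 0 in the combination, at least 10.3-fold lower against the 3 UMIs that a count of 0 allows. Ccr7 had 2 and 29 UMIs, and its log2 ratio of 5.47 turned to -0.91 when doublets were left in.

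Plasmacytoid dendritic cells, the main source of type I interferon, differed in 329 of 1813 genes (18.1%). All 8 tested NF-kB targets were higher and 7 past the fold, against 11.1% of all genes, with Nfkbia at 138 and 562 CPM and Cd83 at 25.1 and 168 CPM. Ifitm1 was at 31.8 CPM in ctrl, 47.6 in 2DG, 382 in aPDL1 and 598 in the combination, so both libraries with aPDL1 were high. Gch1, for the first enzyme of tetrahydrobiopterin synthesis, was at 47.6 and 246 CPM, a log2 ratio of 2.34 that was 1.29 when the 2 libraries were clustered alone. Gch1 was also past the fold and higher in 10 of the 13 types with 100 or more cells, so it was not particular to plasmacytoid dendritic cells. Siglech, a marker of the type, was at 1359 and 1174 CPM. These values rest on 43 and 51 cells.

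**Figure D3:**
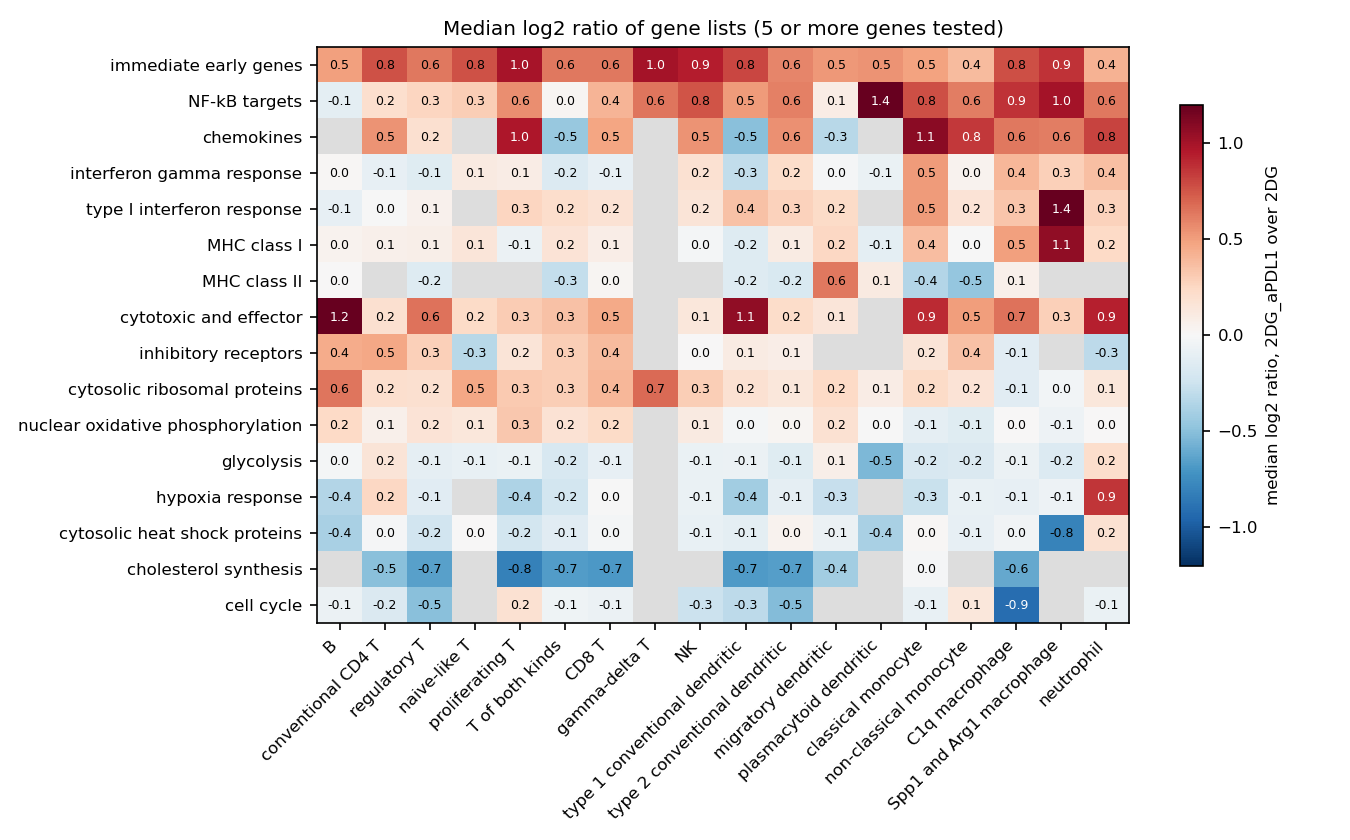
Median log2 ratio of the combination to 2DG for 16 gene lists (rows) in 18 cell types (columns), with the value in each cell and grey where fewer than 5 genes of a list were tested. Immediate early genes are above 0 in every column shown, NF-kB targets highest in plasmacytoid dendritic cells, and cholesterol synthesis at or below 0 wherever 5 genes were tested.

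Proliferating T cells differed in 878 of 6242 genes (14.1%). The granzyme genes Gzmd, Gzmg and Gzme, neighbours of close sequence, had 187, 114 and 72 UMIs in 2DG and 0 each in the combination, at least 49.96-fold, 30.5-fold and 19.2-fold lower against the 3 UMIs that a count of 0 allows. At a coarser clustering the log2 ratios of Gzmd, Gzme and Gzmg were -0.45, -0.39 and -1.68. Gzmb was instead at 489.8 and 813 CPM. All 13 tested cholesterol synthesis genes were lower and 11 past the fold, against 8.91% of all genes, with a median of -0.81 beside -0.06 for all genes. Insig1, a sterol sensor, was at 47.6 and 21.1 CPM. Tnfsf11, for the cytokine RANKL, was at 27 and 119.8 CPM and the AP-1 gene Fosb at 88.3 and 378 CPM, both higher. The log2 ratio of Tnfsf11, 2.14, was 1.08 when 2 times as many doublets were removed.

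In naive-like T cells, 481 of 2740 genes were past the fold (17.6%), and, as in B cells, all 71 ribosomal protein genes were higher, 16 of them past it against 8.32% of all genes, with a median of 0.47. Lef1 and Tcf7, which mark the naive state, were at 871 and 790.1 and at 247 and 250.5 CPM. Sytl3, a vesicle protein gene, was at 242 and 676 CPM and Prf1 at 38.9 and 116 CPM. T of both kinds differed in 1140 of 7430 genes (15.3%). Icos was at 244 and 702 CPM and Ctla4 at 584 and 1089.8 CPM there, and Dscam, a cell adhesion gene, was 10.3-fold lower, at 348 and 33.1 CPM. When doublets were left in, the log2 ratios in these cells were 0.39 for Ctla4, 0.60 for Icos and -2.32 for Dscam, from 0.90, 1.53 and -3.36.

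CD8 T cells, the killers that PD-1 blockade is meant to release, differed in 1028 of 9422 genes (10.9%). Gzmb was at 436 CPM in ctrl, 402 in 2DG, 543 in aPDL1 and 681 in the combination and Ifng at 438 and 609.8 CPM in the pair, with log2 ratios of 0.76 and 0.48. Abcb1b, a drug efflux pump, was at 124 CPM in ctrl, 93.0 in 2DG, 118 in aPDL1 and 387 in the combination, 4.16-fold higher than in 2DG. It was past the fold and higher in 8 of the 9 types in which it was tested, with a median log2 ratio of 1.18. Havcr2 was at 194 and 337 CPM. Rnf43, a brake on Wnt receptors, was lower, at 122 and 33.9 CPM, and past the fold and lower in all 6 types in which it was tested. Neither Abcb1b nor Rnf43 was thus particular to CD8 T cells. 8 of 15 tested cholesterol synthesis genes were past the fold and lower, against 5.06% of all genes, with a median of -0.69.

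Among myeloid cells, classical monocytes held more inflammatory and interferon transcripts in the combination. 899 of 8335 genes were past the fold (10.8%). Cxcl9, an interferon gamma-induced chemokine for T cells, was at 86.3 CPM in ctrl, 176 in 2DG, 428 in aPDL1 and 545 in the combination, a log2 ratio of 1.63 (1.52 to 1.74), and Cxcl10 was at 416 and 949 CPM in the pair. All 27 tested type I interferon response genes were higher and 11 past the fold, against 4.62% of all genes, with Isg15 at 197 and 392 CPM and Rsad2 at 50.3 and 120.2 CPM. All 22 NF-kB targets were higher and 14 past it, with Il1b at 969.5 and 1954 CPM. 12 of 17 tested chemokine genes were past it and higher, Ccl24 among them at 56.7 and 237 CPM and Ccl2 at 204 and 434 CPM. At a coarser clustering the log2 ratio of Cxcl9 was 0.59 and that of Ccl24 0.70, from 1.63 and 2.06. The medians of these 3 lists were 0.51, 0.77 and 1.09 beside -0.08 for all genes. All 7 tested class II genes were lower, none past the fold, with H2-Aa at 909 and 711 CPM.

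C1q macrophages, over the different mixtures of clusters given above, differed in 1105 of 9705 genes (11.4%). Il1b was at 220.3 CPM in ctrl, 578 in 2DG, 639.7 in aPDL1 and 1563 in the combination, a log2 ratio of 1.44 (1.39 to 1.48), and Cxcl2, which draws neutrophils, at 957 and 3161 CPM in the pair. All 22 NF-kB targets were higher and 17 past the fold, against 4.21% of all genes, with a median of 0.87 beside -0.06 for all genes. Of 26 tested cell cycle genes, 24 were lower and 16 past the fold, against 7.17% of all genes, with Top2a at 32.5 and 13 CPM. 9 of 17 cholesterol synthesis genes were also past it and lower, Sqle among them at 17 and 6.43 CPM. Ccl8 was at 735 and 994 CPM, less than 1.5-fold apart. Cxcl13, the chemokine that gathers B cells, had 4 UMIs in 2DG and 100 in the combination, and in monocytes or macrophages of mixed state 1 and 299. In that mixed class it was at 0 CPM in ctrl, 0.25 in 2DG, 6.85 in aPDL1 and 82.7 in the combination. The mixed class also pooled clusters in different mixtures. One led by Fn1, Arg1 and Ccl2 held 103 cells of 2DG and 57 of the combination, and one led by Adgrl3, Adgre4 and Ace 267 and 191. One led by Saa3, Prg4 and Alox15 held 18 and 32, and one led by Rsad2, Ifit2 and Isg15 130 and 251. The part of this mixture in the Cxcl13 level was not tested.

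Non-classical monocytes, which patrol vessels, had the smallest share of such genes among the types described here, with 469 of 5745 genes past the fold (8.16%). The lipoprotein receptor genes Cd36 and Olr1 were higher, at 211 and 752 and at 19.8 and 118 CPM, and so was Fkbp5, a glucocorticoid-induced gene, at 81.5 and 332 CPM. Neutrophils differed in 687 of 3484 genes (19.7%). All 13 tested hypoxia response genes were higher there and 11 past the fold, against 11.1% of all genes, with a median of 0.86, while in 10 of 12 classes the median of this list was below 0. Values within neutrophils are over different mixtures of clusters. One with Cxcl3, Ccl3 and the hypoxia list gene Hilpda among its leading genes held 30 cells of 2DG and 86 of the combination. One led by Ngp, Camp and Ltf held 264 and 199, and one led by G0s2, S100a9 and Acod1 held 39 and 13. The part of this mixture was not tested. Elane and Mpo, granule genes of neutrophil precursors, had 533 and 131 UMIs in 2DG and 10 and 0 in the combination. The log2 ratio of Elane, -5.19, was -1.45 when 2 times as many doublets were removed.

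On the PD-1 and CTLA-4 axes, Ctla4 differed more than Pdcd1 in CD8, conventional CD4 and regulatory T cells. Pdcd1 was at 174 and 254 CPM in CD8 T cells, 261 and 386 in conventional CD4 T cells and 120.0 and 106 in regulatory T cells, with log2 ratios of 0.54, 0.57 and -0.17. Ctla4 was higher in each of the 6 T cell classes with 100 or more cells, with log2 ratios of 0.74 in regulatory, 0.82 in CD8, 0.90 in both-kinds, 0.98 in naive-like, 1.02 in proliferating and 1.31 in conventional CD4 T cells. In NK cells it was at 126 and 128 CPM.

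Cd274 was at 1470.0 CPM in ctrl, 1562 in 2DG, 1350.5 in aPDL1 and 1415 in the combination in migratory dendritic cells and at 1231 and 1725 CPM in neutrophils in the pair. It was at 494 and 672 CPM in classical monocytes and 451 and 466 CPM in B cells, with log2 ratios of 0.44 and 0.04, so it was not past the fold in either. In regulatory T cells it was at 249 and 176 CPM and in type 1 conventional dendritic cells at 372 and 247 CPM, lower in both. The log2 ratio in the latter, -0.59, was -0.25 when the 2 libraries were clustered alone. Pdcd1lg2, for the second PD-1 ligand, was at 109.8 and 216 CPM in type 1 conventional dendritic cells and 407 and 396 in migratory ones.

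**Figure D4:**
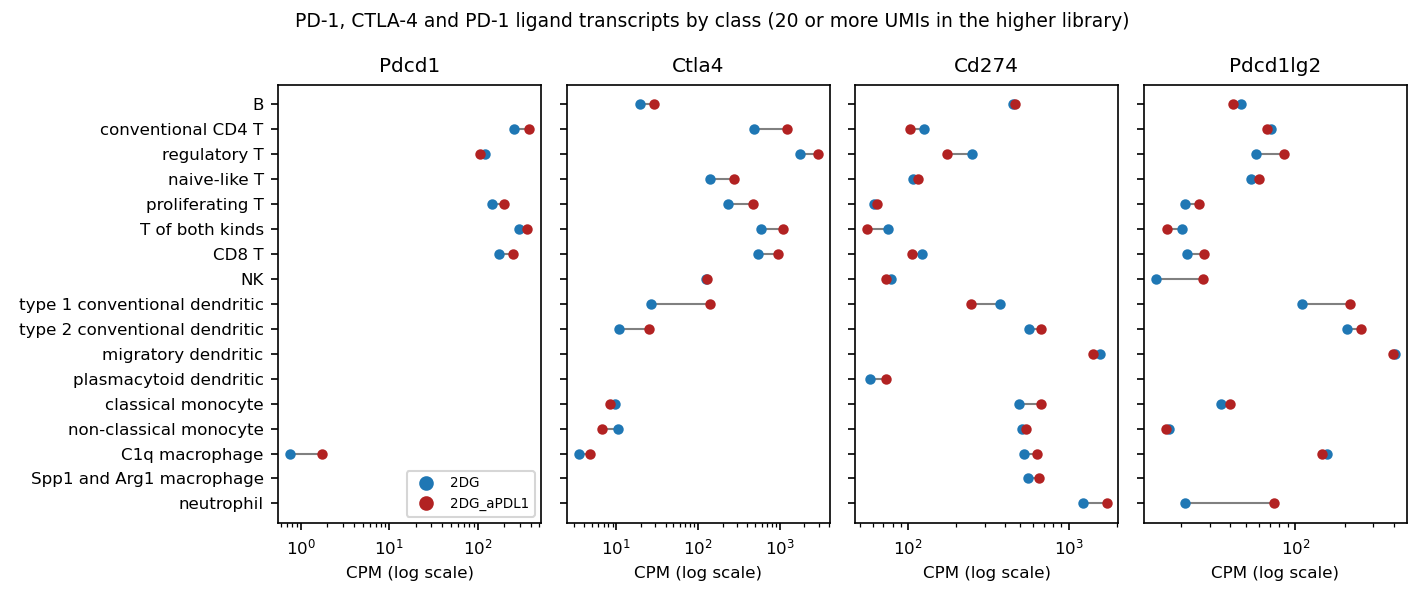
Level of Pdcd1, Ctla4, Cd274 and Pdcd1lg2 in 2DG (blue) and 2DG_aPDL1 (red) by cell type (CPM on a log scale; types with 20 or more UMIs in the higher library; a line joins the pair). Ctla4 is farther right in 2DG_aPDL1 in all 6 T cell classes, while Cd274 is higher in some types and lower in others.

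Both libraries came from mice given 2DG, and lists tied to glucose and glycan supply were nearly level between them. The glycolysis list had a median below 0 in 11 of 13 types with a middle value of -0.09, and the list of N-glycan precursor synthesis and transfer one above 0 in 10 of 13 with a middle value of 0.07. With other scalings these counts were between 9 and 11 and between 7 and 11. Slc2a1, the glucose transporter GLUT1, was at 57.8 and 49.2 CPM in CD8 T cells, 205 and 197 in C1q macrophages and 55.3 and 50.9 in B cells. Txnip was lower in most types, as at 149 and 80.7 CPM in classical monocytes and 155 and 90.6 in type 2 conventional dendritic cells, but was at 213 and 222 in conventional CD4 T cells. The interferon gamma response list had a median of 0.51 in classical monocytes and 0.40 in C1q macrophages, but 0.01 in B cells, -0.10 in CD8 T cells, -0.15 in regulatory T cells and -0.29 in type 1 conventional dendritic cells.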

How the data were processed

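Single cells of 4 mouse libraries were captured with the Chromium 3' kit, per the labels. The authors deposited filtered matrices of raw counts (UMIs) for 32285 genes, made with Cell Ranger, version 3.1.0 and build mm10 per the submitters' processing notes and version 7.0.0 per the file headers. Whether counting used strand is not stated there.

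Barcodes with 500 or more genes and at most 10% mitochondrial counts were kept. Doublets were scored with Scrublet (scanpy 1.11.5) and the highest scores removed at 0.8% per 1000 barcodes. All 4 libraries were clustered together without integration (2000 variable genes, none of them an antigen receptor segment, 30 components, 15 neighbours, Leiden resolution 2). Clusters were named from marker lists by a scoring rule made after the clusters were seen. Counts were summed per library and type. Genes needed 50 UMIs in the higher library, and 0.5 was added to counts before log2 ratios. The cell types, members and gene lists were chosen with earlier results of these data known. Genes were named as those with the largest ratios in a type that reach 20% of their level in the highest type, with 24 fixed genes and list members. 3 list genes (Mx1, Mx2 and Cxcl11) were not used here, and values of a few other genes are not reported here. The scripts were checked on counts made with known answers. Alternatives changed doublet removal, resolution, libraries clustered, gene minimum, scaling (edgeR 4.0.16 TMM or median-of-ratios) and the count added.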

Additional observations from a re-analysis of the deposited data

How the results depend on the processing

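No paired analysis was possible because each side was 1 library, all with replicate number 1. With 20 or 1 UMIs required in place of 50, genes past the fold numbered 1832 or 5770 in B cells (900 at 50), 1862 or 7603 in C1q macrophages (1105), 1349 or 6683 in NK cells (638), 1625 or 7323 in conventional CD4 T cells (833), 1641 or 6112 in regulatory T cells (891) and 1834 or 7141 in type 2 conventional dendritic cells (1047). In the last they were 670 at resolution 3 and 606 when the 2 libraries were clustered alone.

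Shares are given as log2 ratios. Those of B cells, regulatory T cells, NK cells, type 1 conventional dendritic cells and proliferating T cells moved by less than their counting interval under every alternative run. Without doublet removal, C1q macrophages went from 0.18 to -0.034, T of both kinds from -2.46 to -1.10 and classical monocytes from 0.82 to 0.66. With 2 times the doublet rate, T of both kinds were at -2.04 and migratory dendritic cells went from -0.97 to -1.58. At resolution 1 classical monocytes were at 0.26. At resolution 3, C1q macrophages were at 0.34, T of both kinds at -1.28 and type 2 conventional dendritic cells at 0.45 (from 0.03). With the 2 libraries clustered alone, T of both kinds were at -1.39, classical monocytes at 0.61, conventional CD4 T cells at 0.67 (from 0.36), non-classical monocytes at -0.34 (from -0.08) and type 2 conventional dendritic cells at 0.54. With 1000 genes per cell, C1q macrophages were at -0.019, classical monocytes at 0.47 and conventional CD4 T cells at -0.62. Without T and NK cells in the denominator, an alternative chosen after seeing the data, C1q macrophages were at 0.013 and classical monocytes at 0.65.

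Left out of the totals after seeing the data, the genes lower in 10 or more types (other than Hspa1a and Hspa1b) lowered the percentage of genes past the fold that were higher to between 25 (regulatory T cells, from 36.5) and 50.9 (plasmacytoid dendritic cells, from 61.1) in the 11 types where it moved by over 10 points. With TMM that percentage also went from 44.3 to 32.9 in T of both kinds, 43.3 to 30.8 in migratory dendritic cells, 56.5 to 42.1 in neutrophils, 36.7 to 47.9 in proliferating T cells and 41.0 to 53.1 in type 2 conventional dendritic cells.

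Of list medians, NF-kB targets in C1q macrophages (0.87) were at 0.97 with TMM, and cholesterol synthesis in type 2 conventional dendritic cells (-0.66) at -0.15 at resolution 3 and -0.12 in the clustering of 2 libraries. Immediate early genes in C1q macrophages (0.77) were at 0.91 without doublet removal, 0.88 at resolution 3, 0.83 with median-of-ratios and 0.87 with TMM, and in conventional CD4 T cells (0.76) at 1.07 with 1000 genes per cell, where inhibitory receptors (0.46) were at 0.15. The interferon gamma response in C1q macrophages (0.40) was at 0.28 without doublet removal, 0.48 at resolution 3 and 0.50 with TMM, and in classical monocytes (0.51) at 0.67 without doublet removal and 0.62 with 2 times the rate.

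Of 183 named gene and cell type pairs, 175 were past the fold and 159 past it under every alternative run. Those that changed direction were Ccr7 in type 1 conventional dendritic cells (-0.91 without doublet removal), Cd274 and Cyp7b1 in migratory dendritic cells (0.020 and -3.28) and Prtn3 in neutrophils (0.14) with 2 times the doublet rate, Marco in C1q macrophages (0.67 at resolution 1) and Xcl1 in T of both kinds (0.81 with 2 libraries clustered). Differences that grew by over 1.5 times include Spock1 in migratory dendritic cells (-7.37 with 2 times the rate, from -3.27), Nav2 in type 2 conventional dendritic cells (-3.27 at resolution 3, from -2.49) and Olr1 in non-classical monocytes (3.34 without doublet removal, from 2.56). The cause was not tested.

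Some classes were not found under an alternative and gave no value there: naive-like T without doublet removal, type 2 conventional and plasmacytoid dendritic cells with 2 times the rate, 6 classes at resolution 1 (conventional CD4 T, T of both kinds, naive-like T and all dendritic types but the migratory), proliferating T at resolution 3, and T of both kinds, proliferating T and gamma-delta T with 1000 genes per cell. Depth limits the small classes most: in type 1 conventional dendritic cells of the combination, 3 UMIs correspond to 6.28 CPM.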
